A study of Mus musculus with 6 samples.

Results

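The cytosolic ribosomal protein genes were described in the lateral septum of mice fed a control diet or a diet with the antipsychotic olanzapine. Members were the genes whose symbol begins with Rpl, Rps or Rplp followed by a number, leaving out the Rps6k kinases and symbols marked as pseudogenes, and 89 of the 35415 genes in the table met this rule. Of these, 52 carry a large subunit symbol, 34 a small subunit symbol and 3 are the stalk genes Rplp0, Rplp1 and Rplp2. All mice were wild-type C57BL/6 females, about 8 weeks old on arrival. The control group received maintenance chow and the olanzapine group the same chow with olanzapine at 50 mg/kg, in both cases for 12 weeks. RNA from micro-dissected lateral septum was sequenced as 3 control and 3 olanzapine libraries, each a pool of 3 mice, so a library is a pool average and p-values measure the spread between pools. Total gene counts were 38208153 to 39868872 per library.

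Each ribosome is built of RNA and ribosomal proteins, in a small subunit that reads the mRNA and a large subunit that joins amino acids. Many ribosomal protein mRNAs begin with a C followed by an unbroken run of C and T, the terminal oligopyrimidine (TOP) tract, through which the mTORC1 kinase pathway sets their translation together. Such control acts largely on translation, which RNA levels do not measure. The symbol rule also took in genes that do not encode a standard ribosomal protein. Rps19bp1 and Rps23rg1 are not ribosome subunits, and Rpl37rt, Rps27rt, Rpl32l and Rpl6l are retrocopies or copies of their parent genes, of which 3 (Rpl37rt, Rpl32l and Rpl6l) are typed as pseudogenes in GENCODE M21. The rule missed proteins of the ribosome whose symbols differ, and Rpsa, Fau and Rack1 are given apart.

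The feature the family is known for was more frequent at the annotated starts of the members than over all genes. Most members with a window lacked it. RefSeq windows on GRCm38.p6 were at hand for 68 of the 89 members. The annotated first base was C in 35.3% of these members, against 18.9% of the 27025 genes in the window table. A gene with more than 1 annotated start was counted where any of its windows held the feature. A first C with a C and T run of at least 6 bases was present in 13 members (19.1%, against 2.05% of all genes in the table). These 13 include the copies Rpl32l and Rps27rt. The stretches below, 8 bases before and 20 bases from the annotated start, are shown because they carry this tract. They belong to 9 of these 13 members, and capitals mark the run from the first transcribed base.
Rps10 (chr17:27635225-27635252, minus strand): gcacgcccCTTCCTTTCCagcctccgcc
Rps6 (chr4:86857348-86857375, minus strand): agtcgggcCTCTTTTTCgtgacgcctcc
Rpl35a (chr16:33056474-33056501, plus strand): ttgccttcCTCTTTCCgccatcttggcg
Rpl28 (chr7:4792957-4792984, plus strand): tcgtgtctCTCTTTCCgtctccggccgc
Rpl38 (chr11:114668572-114668599, plus strand): gcctcgttCTTTCCCCgttctcttcggt
Rpl15 (chr14:18270967-18270994, minus strand): aaagccttCTTCCTTTCCTCTggcggca
Rps15a (chr7:118116128-118116155, minus strand): tctgccatCTTCCCTCgccggtgagtga
Rps27 (chr3:90213629-90213656, minus strand): ctttcgctCCTTTCCggcggtgacgacc
Rps27rt (chr9:114982720-114982747, minus strand): atcccttgCTTTCCggcggtgacgacct
The last line is the retrocopy of the line above it. The longest run of bases shared by Rps27 and Rps27rt was 38 of the 50 bases after the start but only 10 of the 250 bases before it. The split of reads between this pair is uncertain.

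With a first C and a run of at least 4 bases the share was 22.1% of members, against 4.49% of all genes in the table. The measure follows the annotated starts. For comparison, Rpl22l1, Rps19bp1 and Rpl3l, which are described below for their values, begin with these bases, with no capitals because the first base is not C.
Rpl22l1 (chr3:28805500-28805527, plus strand): gcaagcccgttctcttcccacggctgca
Rps19bp1 (chr15:80264287-80264314, minus strand): gaagtagctcgccgcgtgtgggcggggc
Rpl3l (chr17:24727818-24727845, plus strand): ctagctctgtcatttgacctctggtgcc
In Rpl22l1 a run of C and T begins after the annotated first base g. Over the whole windows, from 250 bases before to 50 after the start and on both strands, the letters CCGGAA, a core of ETS factor sites, were found in at least 1 window of 51.5% of the members and of 16.7% of all genes in the table. The GC box letters GGGCGG were found, counted by gene in the same way, in 58.8% against 38.2%, AAGATGG, a core of YY1 sites, in 14.7% against 7.28%, and TATAAA in 11.8% against 15.7%. Matches of different motifs can share end bases. The 120 bases before the start are shown for Rpl41, the member with the highest FPKM among those with a window. Capitals mark both of the more frequent motifs, CCGGAA and GGGCGG (here on the other strand).
Rpl41 upstream (chr10:128549169-128549288, minus strand): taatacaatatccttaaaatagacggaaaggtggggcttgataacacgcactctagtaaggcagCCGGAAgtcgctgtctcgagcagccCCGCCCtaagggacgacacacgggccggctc
These matches describe letters in a window and were not tied to any value below.

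Ribosomal protein mRNAs were abundant in every pool. Per length, as FPKM (fragments counted per unit of gene length and of library size), 68 members had a mean over 100, 15 lay between 10 and 100 and 6 were at 10 or below. The highest with the deposited gene lengths was Rplp1, a stalk protein that helps recruit elongation factors, at 988, 1114 and 1147 FPKM for control pools 1 to 3, against 955, 1051 and 1282 FPKM for olanzapine pools 1 to 3. Rpl41, which encodes the shortest protein of the large subunit, had 956, 1029 and 1193 FPKM with control chow and 955, 1227 and 1149 FPKM with olanzapine. The means of the pair, 1090 ± 119 and 1085 ± 120 FPKM (SD, n = 6 pools), did not differ beyond their spread. Rps15 (730 ± 68.0 FPKM) and Rps29 (716 ± 94.7 FPKM), both of the small subunit, followed and likewise overlapped. Rpl26, of the large subunit, was next at 603 ± 66.7 FPKM. In each of these 5 genes the control and olanzapine pools overlapped.

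**Figure D1:**
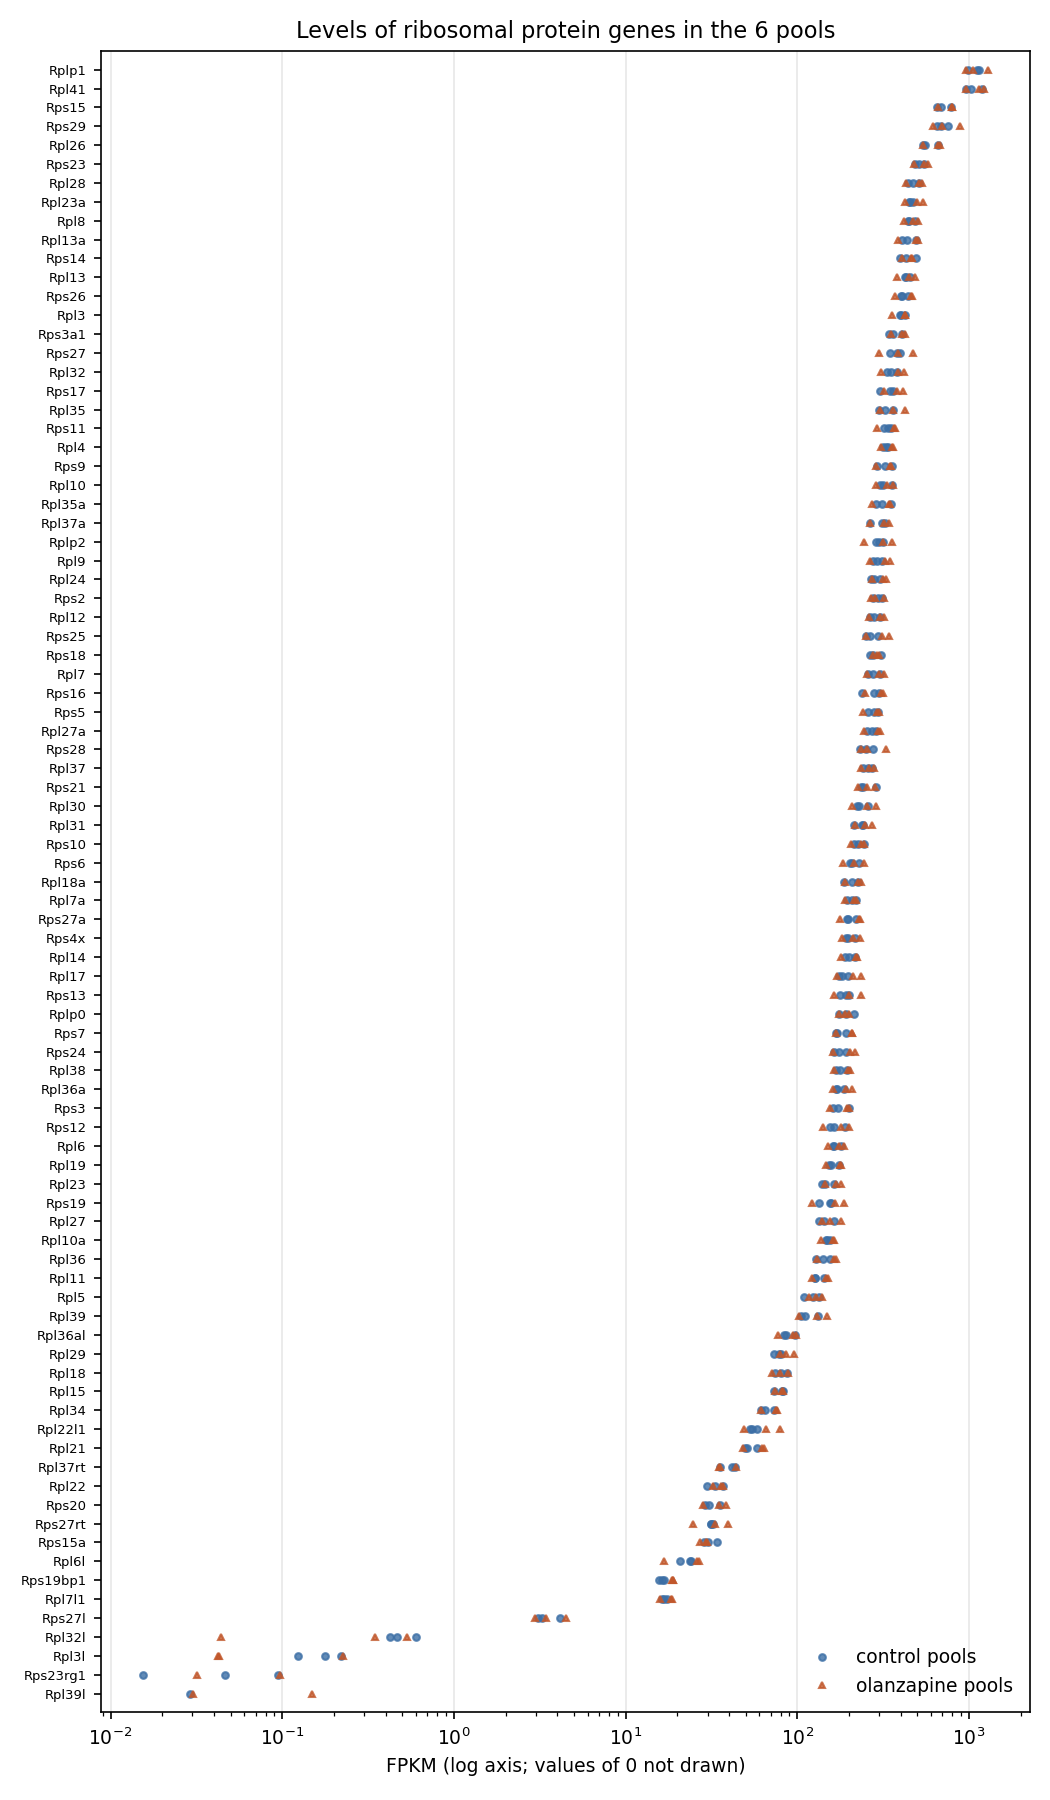
Level of members with a value above 0, in FPKM on a log axis, with 1 point per pool (circles, control; triangles, olanzapine) and genes ordered by their mean. Most members lie between 100 and 600 FPKM, and in most of them the points of the groups intermingle.

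The other stalk proteins lay well below Rplp1, at 303 ± 36.9 FPKM for Rplp2 and 191 ± 14.7 FPKM for Rplp0 (SD, n = 6 pools). FPKM depends on the length assigned to the gene. Each deposited FPKM was its count divided by the library total and 1 fixed length per gene, from 346 to 5136 bases (median 792) in the members. In 4 members (Rps15a, Rps27l, Rpl22 and Rpl19) this length was over 3 times that of the shortest principal transcript. Rps15a, for example, had 29.9 FPKM with the deposited length of 5136 bases and 240 on the same scale with a transcript of 640 bases. The 5 leading genes were the same with either length, but Rpl41 (1114) came before Rplp1 (1022) with the shortest principal transcripts.

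No ribosomal protein gene was called different between the diets. With edgeR's quasi-likelihood F test and Benjamini-Hochberg adjustment over 17255 genes, 0 of the 86 members that passed the count filter were called at adjusted p under 0.05, where 2.32% of all tested genes passed (1.83% above control and 0.493% below). At an unadjusted p under 0.05, 0 of 86 members passed, against 17.6% of all genes. With a log2 fold change beyond 1 as a further limit, edgeR called 0 members, against 1.01% of all genes. DESeq2 gave 0 at both p thresholds, against 5.92% and 12.4% of the genes it tested. The smallest p of a member was 0.0804 (edgeR, adjusted p = 0.345), for Rpl29. The 3 members not tested were Rpl10l (0 counts in all pools), Rpl39l (at most 5 counts) and Rps23rg1 (at most 6 counts).

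The estimates were small as well as uncalled. The median log2 fold change (olanzapine over control) was 0.028 over the 86 members (interquartile range -0.0048 to 0.067), beside 0.0039 over all tested genes (-0.17 to 0.16). Of the members, 61 were above 0 and 25 below, with medians of 0.037 for 50 large subunit, 0.026 for 33 small subunit and -0.0046 for 3 stalk genes. Since the members move together over the pools, these are not 86 separate results. Among the 84 members with a mean of at least 50 counts, estimates ran from -0.12 (Rps15a) to 0.20 (Rpl22l1) and the median half-width of the 95% interval was 0.22. In all 84 the interval lay within 1 on the log2 scale, in 83 within 0.5 and in 55 within 0.3, so a change beyond 2-fold lay outside the interval of each of these 84, while small shifts in either direction lay inside it. All 86 intervals included 0.

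**Figure D2:**
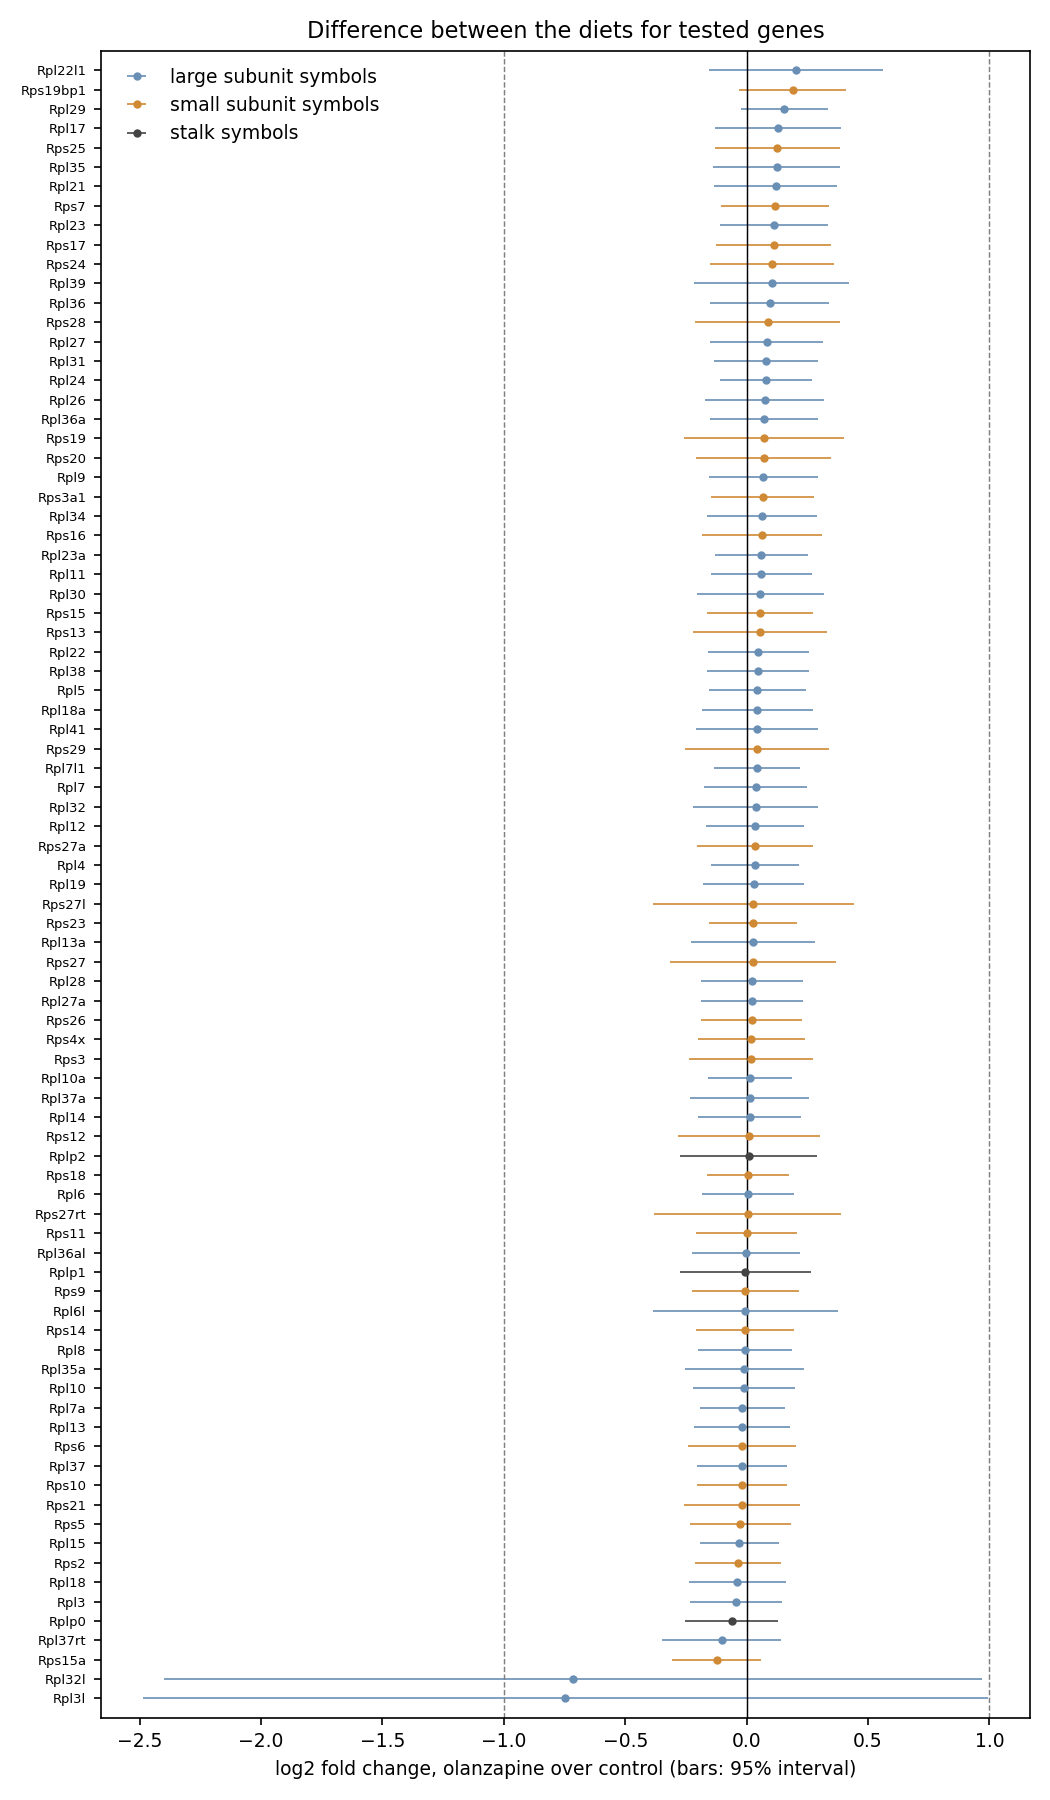
Log2 fold change of tested members, olanzapine over control, with 95% intervals from the edgeR fit and dashed lines at -1 and 1. All intervals drawn include 0, and only those of Rpl32l and Rpl3l, with a mean of about 10 counts, reach beyond -1.

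The share of all gene counts that fell on the members was 1.63%, 1.72% and 1.88% for control pools 1 to 3, against 1.58%, 1.91% and 1.94% for olanzapine pools 1 to 3. The lowest and the highest share were both in olanzapine pools, and the groups overlapped. The mean was 1.74% ± 0.127 in control and 1.81% ± 0.202 in olanzapine pools (SD, n = 3), a difference smaller than either spread. The ratio of large subunit to small subunit counts, stalk genes included with the large subunit, stayed between 1.65 and 1.69 in all 6 pools. A lower share cannot be told apart from fewer cells rich in these mRNAs or less of the mRNA per cell in bulk tissue.

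**Figure D3:**
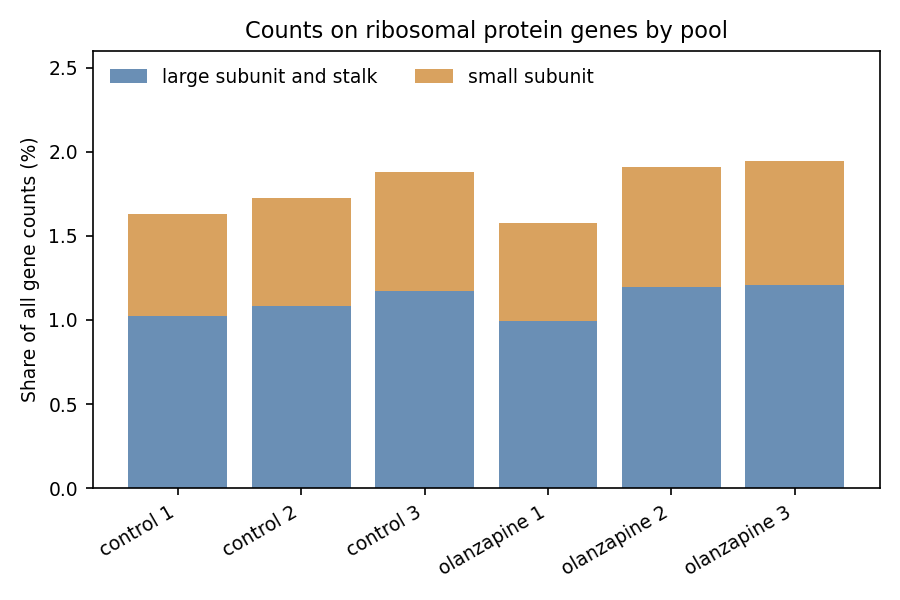
Percent of all gene counts on the members in each pool, split into large subunit with stalk and small subunit symbols. Totals run from 1.58% in olanzapine pool 1 to 1.94% in olanzapine pool 3, and the control pools lie between.

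The members moved together from pool to pool, and by more within each group than between the groups. Their mean log2 level, after scaling by the trimmed mean of M values (TMM) and relative to the mean over pools, was -0.084, -0.029 and 0.097 for control pools 1 to 3, against -0.16, 0.055 and 0.12 for olanzapine pools 1 to 3. Olanzapine pool 3 was 1.21-fold above olanzapine pool 1 and control pool 3 was 1.13-fold above control pool 1. The difference of the group means was 0.011, beside an SD over pools of 0.093 in control and 0.15 in olanzapine. Olanzapine pool 1 was the lowest pool for 64 of 86 members and olanzapine pool 3 the highest for 52. The correlation of a member with the mean of the others over the 6 pools had a median of 0.914, and it was over 0.7 in 78 members, the highest being 0.995 for Rpl14, a large subunit protein. Between groups lay a median of 3.00% of a member's variance, beside 23.9% over all genes.

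**Figure D4:**
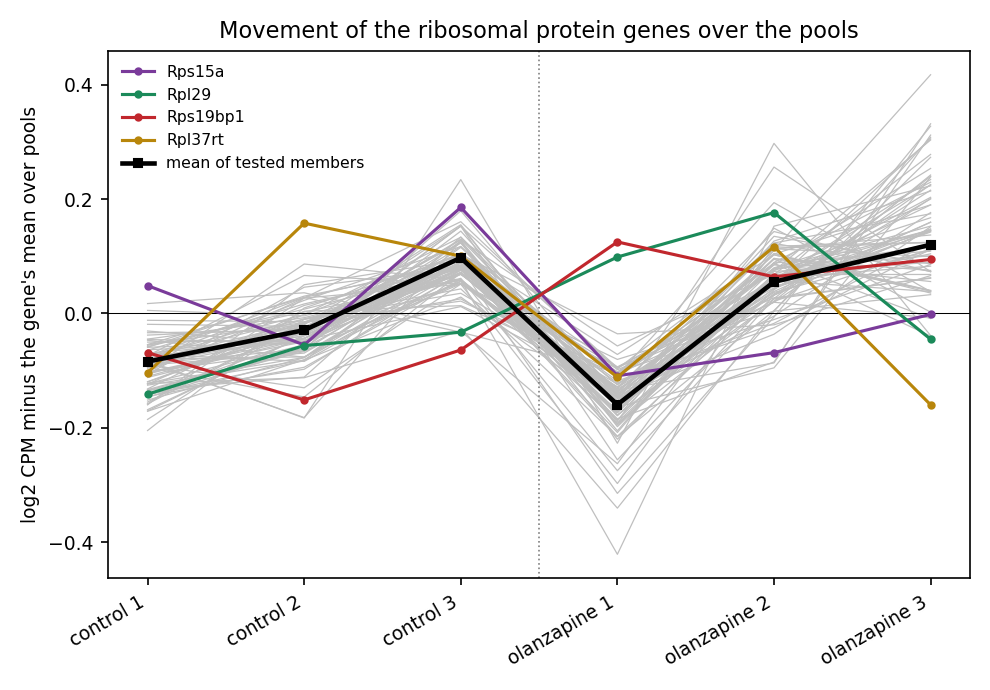
Log2 level of each member with a mean of at least 50 counts, minus its own mean over the 6 pools (grey lines, which join the values of a gene and imply no order of pools), with the mean of the tested members in black and Rps15a, Rpl29, Rps19bp1 and Rpl37rt, which correlate least with it, in colour. The black line is lowest in olanzapine pool 1 (-0.16) and highest in olanzapine pool 3 (0.12).

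Other properties of the libraries also differed between pools, some of them with this pattern, and their part in it was not tested. Of other genes, the 874 with a deposited length up to 1 kb had median deviations of -0.087, -0.065 and 0.050 with control chow and -0.063, 0.092 and 0.092 with olanzapine, while the 7853 over 4 kb ran the other way, from -0.055 to 0.044. In each of 4 length classes of the members olanzapine pool 1 was lowest. The highest was olanzapine pool 3 in the 3 classes up to 2 kb, but control pool 3 (0.13) in the 7 members over 2 kb, with olanzapine pools 2 and 3 at 0.068. Olanzapine pool 1, the lowest pool, stood apart in the 7 cortical glutamatergic neuron markers, which summed to 915 CPM (counts scaled to library size) there and 32.6 to 99.9 CPM elsewhere. The 10 genes listed for lateral septum neurons summed to 2235 CPM in that pool and 2548 to 3363 CPM in the others. This list includes Gad1, Gad2 and Slc32a1, which are general to GABA neurons and not particular to the septum. The 8 oligodendrocyte markers were highest in control pool 3 and olanzapine pool 3 (10916 and 10859 CPM) and lowest in olanzapine pool 1 (8111 CPM). The 11 choroid plexus markers did not follow the members, with 89.5 CPM in olanzapine pool 3 and 7746 CPM in control pool 3, the pools in which the members were highest. The hepatocyte markers differed by diet. Of those other than Ttr, 11 of 11 were called higher with olanzapine, beside 1.83% of all genes, summing to 12.7 to 23.6 CPM in control and 259 to 323 CPM in olanzapine pools, and none was at 0 in all pools.

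Without olanzapine pool 1 the family lay higher in the olanzapine group. Its median log2 fold change became 0.12, 81 of 86 members were above 0 and 9 had an unadjusted p under 0.05 (edgeR), beside 18.8% of all genes. Of these 9, 8 were higher and Rpl3l was lower. Still 0 members were called, where 2.87% of all genes were, and the smallest adjusted p was 0.120 for Rpl22l1. Other markers moved with this contrast, and their part in it was not tested. The 7 brain endothelium markers summed to 105 and 93.8 CPM in olanzapine pools 2 and 3, to 182 CPM in olanzapine pool 1 and to 157 to 185 CPM in control. The 9 striatal projection neuron markers summed to 2497 and 2435 CPM in olanzapine pools 2 and 3, to 1253 CPM in olanzapine pool 1 and to 1205 to 2092 CPM in control. The 9 microglia markers summed to 473 and 504 CPM in olanzapine pools 2 and 3. They summed to 429 CPM in olanzapine pool 1 and to 437 to 452 CPM in control. The 8 astrocyte markers summed to 4570 to 5235 CPM in olanzapine pools, pool 1 included, and to 5323 to 5871 CPM in control. Without olanzapine pool 3 the median log2 fold change of the family was -0.031, so the direction of the family rests on which pool is included.

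Of the 5 highest estimates, those of Rpl22l1, Rpl17, Rps25 and Rpl29 had overlapping pools and that of Rps19bp1 did not. Rpl22l1, a paralogue of Rpl22 that can take its place in the large subunit, had 26.6, 26.8 and 28.3 CPM in control and 24.1, 31.3 and 38.7 CPM in olanzapine pools. Both its lowest and its highest value were in the olanzapine group, and the log2 fold change was 0.20 ± 0.16 (SE, n = 3, edgeR adjusted p = 0.544). Rpl17, which lines the peptide exit tunnel, had 238, 245 and 265 CPM in control and 231, 272 and 315 CPM in olanzapine pools, a log2 fold change of 0.13 ± 0.11 (SE). Rps25, a small subunit protein with a part in initiation at internal entry sites, had 176, 183 and 203 CPM in control and 174, 207 and 232 CPM in olanzapine pools, a log2 fold change of 0.13 ± 0.11 (SE). In all 3 genes the order of the olanzapine pools was that of the family.

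Rps19bp1, Rpl29, Rps15a and Rpl37rt followed the family least among the members with at least 50 counts. Rps19bp1, which encodes a binding partner of Rps19 and no ribosome subunit, had 13.8, 13.0 and 13.9 CPM in control and 15.8, 15.1 and 15.5 CPM in olanzapine pools. It was the 1 member of 86 whose pools did not overlap between the groups, beside 24.3% of all genes (13.3% with olanzapine above). Its log2 fold change was 0.19 ± 0.095 (SE, edgeR adjusted p = 0.348), and its correlation with the other members was -0.030. Rpl29, a large subunit protein, had 86.7, 91.9 and 93.4 CPM in control and 102, 108 and 92.6 CPM in olanzapine pools, and the groups overlapped only through olanzapine pool 3. Its log2 fold change was 0.16 ± 0.078 (SE), with a 95% interval of -0.024 to 0.34. Rps15a, of the small subunit, had 158, 147 and 174 CPM in control and 142, 146 and 153 CPM in olanzapine pools, and its log2 fold change was -0.12 ± 0.079 (SE, edgeR adjusted p = 0.470). Rpl37rt had 27.3, 32.7 and 31.5 CPM in control and 27.2, 31.8 and 26.3 CPM in olanzapine pools, a log2 fold change of -0.10 ± 0.11 (SE), and it is a retrocopy of Rpl37, so its reads are uncertain. The lowest estimates after these were Rplp0 (-0.061 ± 0.083, SE), Rpl3 (-0.044 ± 0.082) and Rpl18 (-0.038 ± 0.086), all with overlapping pools.

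When the libraries were instead scaled so that the members had the same mean log2 level in every pool, which asks whether single members changed relative to the family, 0 of 86 were called and 0 had an unadjusted p under 0.05. That scaling called 0.985% of all genes, with 11.3% at an unadjusted p under 0.05. The smallest adjusted p of a member was 0.696 (edgeR).

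Paralogues of the family were present at very unequal levels. Rpl3 had 403 ± 26.2 FPKM and Rpl3l, its paralogue known from heart and skeletal muscle, 0.139 ± 0.0834 FPKM (SD, n = 6 pools). Rpl3l rests on 13, 9 and 16 counts in control and 16, 3 and 3 counts in olanzapine pools, and its log2 fold change of -0.75 ± 0.75 (SE) has a 95% interval of -2.48 to 0.99. Rpl39 had 122 ± 18.3 FPKM, while its paralogue Rpl39l, known from testis, had at most 5 counts in a pool. Rpl10 had 326 ± 29.0 FPKM and its testis paralogue Rpl10l was at 0 in all pools. A count of 0 allows up to 3 counts per library, which limits only counting error.

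Rpl7 had 285 ± 26.6 FPKM and Rpl7l1 17.2 ± 1.16 FPKM, which became 229 and 34.3 with the shortest principal transcripts. Rpl36a had 182 ± 17.8 FPKM and Rpl36al 89.3 ± 8.26 FPKM. In the pair Rpl22 and Rpl22l1 the levels were 34.1 ± 2.99 and 59.9 ± 11.1 FPKM with deposited lengths of 2343 and 489 bases. With the shortest principal transcripts they became 169 for Rpl22 and 53.1 for Rpl22l1 on the same scale, so the order of Rpl22 and Rpl22l1 turns with the length used. Rps27 had 380 ± 58.4 FPKM, Rps27l 3.57 ± 0.615 FPKM and the retrocopy Rps27rt 32.1 ± 4.71 FPKM, which became 381, 19.7 and 32.1 with the shortest principal transcripts. Rps4x, on chromosome X, had 205 ± 18.3 FPKM, and the symbol Rps4l was absent from the gene table. Rps27rt and the parent Rps27 were both lowest in olanzapine pool 1 and highest in olanzapine pool 3. How reads that match several places were counted is not stated, so the levels of copies that share sequence are uncertain.

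The members lie on 19 chromosomes and 4 of them on X (GENCODE M21, GRCm38). Inside 29 members lie 55 small nucleolar RNA genes, 5 of them in Rpl4 and 4 in Rpl13a. The 11 RNA host genes of small nucleolar RNAs listed for TOP tracts, such as Gas5, had a median log2 fold change of 0.23. All olanzapine pools lay above control in 5 of 11, beside 13.3% of all genes, and 0 were called, beside 2.32% of all genes. Gas5 had 85.0, 90.0 and 101 CPM in control and 91.1, 102 and 131 CPM in olanzapine pools, a log2 fold change of 0.23 ± 0.13 (SE, edgeR adjusted p = 0.417). Snhg12 (0.070 ± 0.15, SE) and Zfas1 (-0.022 ± 0.12), other host genes of this kind, lay closer to 0.

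Ribosome proteins outside the symbol rule had estimates as close to 0 as the members. Rpsa, a small subunit protein also known as a laminin receptor, had 518, 542 and 600 CPM in control and 485, 561 and 563 CPM in olanzapine pools. Its log2 fold change was -0.044 ± 0.092 (SE), and those of Fau (0.033 ± 0.10), which encodes a ribosomal protein fused to a ubiquitin-like protein, and of Rack1 (-0.036 ± 0.086), the scaffold on the small subunit, were as small. None of these 3 was called.

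In a list of 19 translation factors and other genes named for TOP mRNAs, 0 were called by edgeR, beside 2.32% of all genes. The others include Nap1l1, Npm1 and Hnrnpa1, and the starts of the listed genes were not checked here. The median log2 fold change was 0.022. All olanzapine pools lay above control in 1 of 19 (Nap1l1) and below in 3, beside 13.3% and 11% of all genes. Eef1a1, the elongation factor that brings tRNAs to the ribosome, had 3438, 3499 and 3704 CPM in control and 2988, 3430 and 3409 CPM in olanzapine pools, so all olanzapine pools lay below all control pools, with a log2 fold change of -0.12 ± 0.095 (SE, edgeR adjusted p = 0.576). Eef2, the translocation factor, lay below likewise (-0.081 ± 0.076, SE), and Tpt1 overlapped (0.052 ± 0.096). Eif2s3x, a subunit of the initiation factor that carries the first tRNA, had the largest estimate (-0.32 ± 0.072, SE) and was called by DESeq2 (adjusted p = 0.0128) but not by edgeR (adjusted p = 0.0682). Of 33 ribosome biogenesis factors 0 were called by edgeR, with a median of 0.095, and 7 of 33 lay above in all olanzapine pools and 1 below. DESeq2 called 3 of these, Taf1d (edgeR log2 fold change 0.50 ± 0.13, SE), Nob1 (0.36 ± 0.073) and Heatr1 (0.36 ± 0.079), where it called 5.92% of all genes. These 4 genes were named after their values were seen. The most abundant per length were Nop10 (0.11 ± 0.097, SE) and Sbds (0.12 ± 0.076), with Ncl, nucleolin, at -0.10 ± 0.088.

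The 78 mitochondrial ribosomal protein genes, which form the separate ribosome of mitochondria, also had 0 calls, beside 2.32% of all genes. Their median log2 fold change was 0.11, 19 of 78 lay above in all olanzapine pools and 0 below, where 13.3% and 11% of all genes did. The genes with the highest levels were Mrps21 (0.13 ± 0.077, SE), Mrpl42 (0.11 ± 0.089) and Mrpl52 (0.051 ± 0.10). Their median deviations were -0.047, -0.092 and -0.0024 in control and -0.028, 0.068 and 0.089 in olanzapine pools, so olanzapine pool 1 was less low than for the cytosolic members. Whether this differs from the cytosolic family was not tested.

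**Figure D5:**
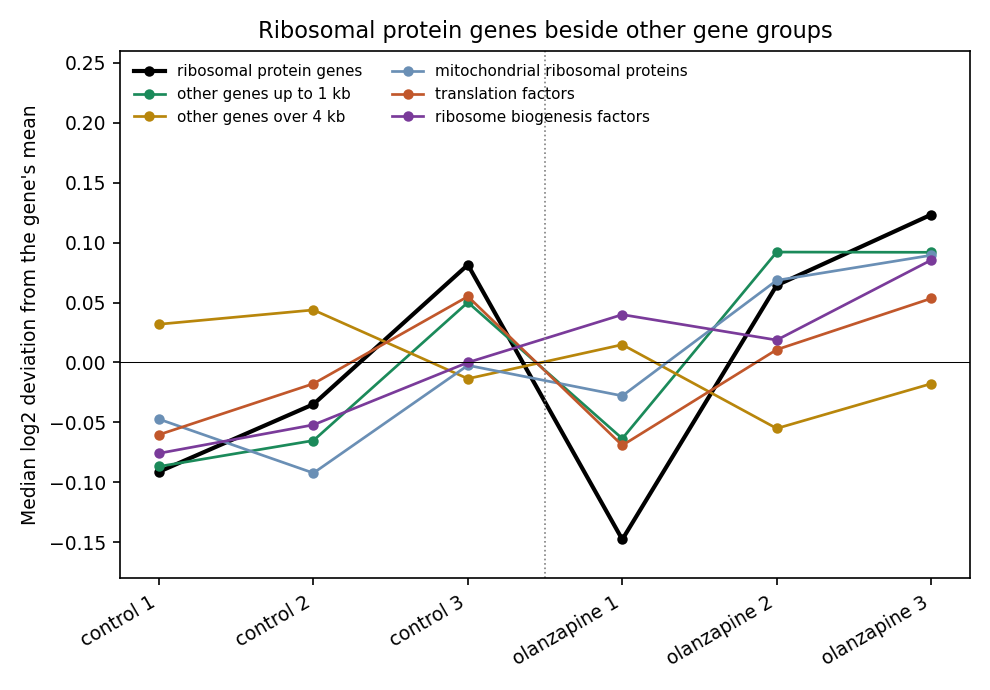
Median deviation of log2 level from each gene's mean over pools, for the tested members, other gene groups of translation and other genes by deposited length (lines join a group's values and imply no order of pools). Of the 6 groups drawn, the members have the lowest value in olanzapine pool 1 (-0.15) and the highest in olanzapine pool 3 (0.12). The RNA host genes of small nucleolar RNAs, not drawn, were higher in olanzapine pool 3 (0.19).

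In the mTORC1 pathway and its regulators of TOP mRNAs, 1 of 17 genes was called higher and 1 lower, beside 1.83% and 0.493% of all genes. Rps6kb2, a kinase that phosphorylates the ribosomal protein Rps6, had 10.9, 11.3 and 10.6 CPM in control and 21.9, 16.5 and 17.9 CPM in olanzapine pools, and it rose by 0.78 ± 0.13 on the log2 scale (SE, edgeR adjusted p = 0.0235). Eif4ebp2, a repressor of cap-dependent initiation and the main form in brain, had 28.6, 30.4 and 26.3 CPM in control and 20.6, 20.1 and 21.1 CPM in olanzapine pools, and it fell by 0.46 on the log2 scale (SE 0.085, edgeR adjusted p = 0.0358). The groups did not overlap in either gene. Both calls are near the threshold in edgeR, while DESeq2 gave adjusted p = 3.76e-05 for Rps6kb2 and 0.0017 for Eif4ebp2. In edgeR the call of Rps6kb2 was lost without any 1 control pool or without olanzapine pool 3, with adjusted p of 0.0789 to 0.104, and that of Eif4ebp2 without any 1 of the 6 pools, with adjusted p of 0.0511 to 0.149. The log2 fold changes with 1 pool left out ran from 0.65 to 0.86 for Rps6kb2 and from -0.51 to -0.41 for Eif4ebp2. Of the other members of this list, Rheb, the activator of mTORC1 (0.045 ± 0.066, SE), Max, a partner of Myc (-0.0030 ± 0.074), and Larp1, a protein that binds TOP tracts (-0.14 ± 0.077), are given by value.

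Of 7 nuclear-retained long noncoding RNAs in the same libraries, 5 were called higher, beside 1.83% of all genes. Meg3 had 1439, 1328 and 1086 CPM in control and 3273, 2730 and 3531 CPM in olanzapine pools, a rise of 1.31 ± 0.14 on the log2 scale (SE, edgeR adjusted p = 0.00395), and its groups did not overlap.

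The genes outside the family whose levels over the 6 pools were most like the mean of the members, among 14195 genes with at least 50 counts, were Prdx1 (r = 0.997) and Prdx6 (r = 0.995), both peroxiredoxins, Gstm1 (r = 0.996), a glutathione transferase, H2az2 (r = 0.988), a histone variant, and Cops3 (r = 0.985), a subunit of the COP9 signalosome. These r values describe 6 points chosen as the best of many genes and share the library scaling with the members. Prdx1 had 138, 142 and 164 CPM in control and 128, 156 and 168 CPM in olanzapine pools, the same order of pools as the family. None of the 5 was called between the diets.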

How the data were processed

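Total RNA of pooled lateral septum was extracted with TRIzol and made into libraries that the authors sequenced in paired ends. The authors trimmed reads with fastp, aligned them with HISAT2 to mm10 (per the labels' processing notes) and counted them per gene with HTSeq; strand setting, annotation and treatment of multiple matches are not given in the sources used here. The authors deposited raw counts and FPKM. The gene length implied by count, library total and FPKM was averaged over the pools. It lay within 0.0346 bases of a whole number in each of 26020 genes. FPKM was therefore taken as the count over the library total and 1 length per gene, with no measurement added beyond that length. No column of sample values went unused (0).

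Counts were filtered with filterByExpr (minimum count 10), scaled by TMM and fitted by group with edgeR 4.0.16 in R 4.3.3 (quasi-likelihood F test, Benjamini-Hochberg over 17255 genes, call at adjusted p under 0.05). CPM values use TMM library sizes, with a prior count of 2 on the log2 scale. DESeq2 1.42.0 and limma 3.58.1 on log2(FPKM + 1) were alternatives. With 3 pools per group an exact permutation test of a single value cannot go below p = 0.1, so none was used. Depth was 38208153 to 39868872 gene counts per library. The members and lists were chosen with earlier results of these data known. Named genes were the 5 highest and 5 lowest fold changes among members with a mean of at least 50 counts, the 5 highest by FPKM, fixed paralogue pairs, stalk genes, Rpl41, Rpsa, Fau and Rack1, of each pathway list the 3 highest by FPKM and those called, and the 5 genes most alike over pools; retrocopies, Rps19bp1's limma value and Rpl14 were added after values were seen. Library numbers were not taken to pair the pools (correlation of same-numbered deviations over all genes -0.0026, 0.062 and -0.25). Start windows came from RefSeq (GRCm38.p6) and positions from GENCODE M21. Single values of some genes are not reported here; they stay in the counts over all members.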

Additional observations from a re-analysis of the deposited data

How the results depend on the processing

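Under all 19 other settings of the fit, 0 ribosomal protein genes were called. Their median log2 fold change ranged from -0.031 to 0.12 when 1 pool was left out, and from -0.043 (an offset that follows gene length) to 0.049 (limma on FPKM) otherwise, always within 1 SD between pools (0.12) of the value reported. The olanzapine to control ratio of their share of counts, 1.04, ranged from 0.999 to 1.10 with 1 pool left out. Of 27 named members, 9 kept their sign in every setting and 18 did not, and no value of any was called. The limma fits gave 1 member at an unadjusted p under 0.05, Rps19bp1 (limma adjusted p = 0.134). Scaling to the members and the length of the shortest principal transcript were chosen after seeing the data; the second moved the median level over members from 229 to 271 FPKM.

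The 2 calls among 162 other translation genes were less stable: 6 with DESeq2 (which called 5.92% of all genes), 18 at an unadjusted p under 0.05 (where 17.6% of all genes passed), 0 with the fold limit of 1, 0 scaled to the members, and 0 to 1 with 1 pool left out. DESeq2 added Eif2s3x, Taf1d, Nob1 and Heatr1. With the library number as a replicate block, 0 of the 2 were called (adjusted p = 0.0777 for Rps6kb2 and 0.106 for Eif4ebp2) and 0 members, with 140 genes called in all against 401; over all genes same-numbered pools did not deviate together, so the numbers were not taken to pair the pools. For the family mean alone, pool 1 was the lowest and pool 3 the highest in both groups (-0.084 and 0.097 in control, -0.159 and 0.120 in olanzapine, log2 deviation from the mean of all pools). All 6 libraries were close in depth.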
